A study of Mus musculus with 5 samples.

Results

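Chromosome 15 carried more sequencing coverage per CpG than any other autosome in all 5 whole-genome bisulfite sequencing (WGBS) libraries of *Cebpa*-mutant acute myeloid leukemia (AML) blasts, and its methylation is described here in tiles of 5 kb. The members were all tiles of the chromosome with at least 20 calls in every library, a call being 1 read at 1 cytosine of a CpG. They numbered 19823 of the 20133 chromosome 15 tiles that hold a CpG, and of 488658 tiles that passed on the autosomes and X. The chromosome was chosen on its coverage, so coverage values are descriptions without a test. The rule uses no methylation level, but earlier results of these data were known when the chromosome was chosen. The 2 *Tet2*+/+ libraries are numbered 23 and 24 and the 3 *Tet2*-/- libraries 5, 7 and 8, and each of the 5 was made from blasts of mouse bone marrow on a C57BL/6 background. Both groups were *Cebpa*-/p30: 1 allele was deleted and the other encodes only the p30 isoform, so no library stands for normal blood. Deletion of *Cebpa* and, in *Tet2*-/-, of both *Tet2* alleles was driven by Mx1-Cre, which acts on blood cells and on other interferon-responsive cells, after transplantation of the marrow into irradiated adult female hosts. Donor-derived cells without the lymphoid and erythroid markers CD3, B220 and Ter119 were sorted before DNA was isolated. By the study's description of its samples each library came from its own mouse. Whether mice of 1 group had received marrow of the same donor is not given in the sources used here, so these mice may not be independent leukemias. The exact permutation tests below measure the spread between these mice. The edgeR and limma p-values of a tile also draw on a spread shared over all tiles. They do not measure the spread of the 5 libraries at that tile alone.

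TET2 oxidises methylated cytosine and so opens the path to its removal, and its loss is frequent in myeloid malignancy. Mouse chromosome 15 carries *Myc*, a proto-oncogene that drives growth and division, and gain of a whole chromosome 15 is a recurrent event in mouse leukemias and lymphomas. In WGBS, the number of reads on a chromosome follows the amount of its DNA, its base composition and how well its reads map, while the methylation level is a share of reads and does not depend on how many copies are sequenced, unless the copies differ.

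Stretches from 4 of the 5 tiles named below for a gain and from 1 tile named for a loss are printed first, as the 300 bases with the most CpGs in their tile. They are shown as examples in which the group means were further apart than in the whole tile, as they also were in the stretch of the *Adcy6* tile (69.2 points), which is not printed. In the *Csmd3* tile, the other loss, they were closer in the stretch than in the tile (-16.8 against -19.3 points). A promoter in a called tile follows for contrast. Capitals mark each CpG, the pair of letters searched (CG, which reads the same on both strands). Of 335503 stretches of 300 bases along the chromosome, 81.6% hold a CpG and the median holds 2. The genome build is GRCm38 and the plus strand is given for all but the last sequence.
Gain in the *Gm49539* tile (chr15:85667444-85667743): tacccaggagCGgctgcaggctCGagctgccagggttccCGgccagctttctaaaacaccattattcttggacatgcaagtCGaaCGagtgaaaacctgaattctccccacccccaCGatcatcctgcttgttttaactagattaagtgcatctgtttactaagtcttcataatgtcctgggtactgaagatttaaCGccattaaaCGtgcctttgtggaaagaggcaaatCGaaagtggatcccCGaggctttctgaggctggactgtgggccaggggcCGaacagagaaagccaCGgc
Gain in the *Fignl2* tile (chr15:101053591-101053890): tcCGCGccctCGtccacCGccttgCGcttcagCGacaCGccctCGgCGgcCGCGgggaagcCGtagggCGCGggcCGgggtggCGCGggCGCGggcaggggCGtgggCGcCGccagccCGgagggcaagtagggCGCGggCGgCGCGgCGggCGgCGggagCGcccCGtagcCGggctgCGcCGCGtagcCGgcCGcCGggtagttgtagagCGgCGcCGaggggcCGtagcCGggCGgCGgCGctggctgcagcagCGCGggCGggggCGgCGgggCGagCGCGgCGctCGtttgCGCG
Gain in the *Ccdc65* tile (chr15:98717378-98717677): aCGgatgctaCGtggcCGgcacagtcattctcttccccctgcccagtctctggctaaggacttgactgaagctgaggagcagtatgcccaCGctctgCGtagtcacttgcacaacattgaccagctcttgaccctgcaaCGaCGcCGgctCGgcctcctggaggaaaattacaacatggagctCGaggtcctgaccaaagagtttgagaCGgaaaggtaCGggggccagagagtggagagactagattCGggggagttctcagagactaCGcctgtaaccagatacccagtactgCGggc
Gain in the *Dmc1* tile (chr15:79604621-79604920): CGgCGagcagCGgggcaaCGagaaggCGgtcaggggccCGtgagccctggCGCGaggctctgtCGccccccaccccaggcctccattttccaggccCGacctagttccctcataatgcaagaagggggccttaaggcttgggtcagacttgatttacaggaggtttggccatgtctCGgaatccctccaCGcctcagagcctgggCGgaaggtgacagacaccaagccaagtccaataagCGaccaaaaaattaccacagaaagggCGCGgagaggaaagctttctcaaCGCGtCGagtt
Loss in the *1700001L05Rik* tile (chr15:83367215-83367514): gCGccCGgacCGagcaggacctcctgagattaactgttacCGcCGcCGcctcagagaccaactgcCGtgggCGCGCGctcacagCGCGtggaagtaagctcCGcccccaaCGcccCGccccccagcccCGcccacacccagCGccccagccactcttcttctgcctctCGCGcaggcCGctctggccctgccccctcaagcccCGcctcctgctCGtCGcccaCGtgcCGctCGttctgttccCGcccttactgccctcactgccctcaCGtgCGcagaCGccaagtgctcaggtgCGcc
Promoter of *Krt8* (chr15:102004293-102004592, minus strand, from RefSeq on GRCm38.p6): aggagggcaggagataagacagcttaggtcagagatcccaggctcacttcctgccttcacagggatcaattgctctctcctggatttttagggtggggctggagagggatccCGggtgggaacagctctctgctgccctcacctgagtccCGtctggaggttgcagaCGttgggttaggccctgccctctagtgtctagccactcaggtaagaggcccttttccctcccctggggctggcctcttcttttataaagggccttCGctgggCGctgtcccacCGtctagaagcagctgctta
The stretch in *Gm49539* holds 12 CpGs and was methylated at 14.0% and 4.08% in libraries 23 and 24 (*Tet2*+/+), against 82.4%, 53.3% and 89.4% in *Tet2*-/- libraries 5, 7 and 8. The stretch in *Fignl2*, with 60 CpGs, was at 1.59% and 2.20% against 100%, 14.9% and 100%, so that library 7 lay nearer to the *Tet2*+/+ libraries than to the other two of its group. These levels rest on 63, 91, 15, 275 and 31 calls in libraries 23, 24, 5, 7 and 8. The stretch in *Ccdc65* was at 15.1% and 2.02% against 69.1%, 68.9% and 70.4%, the narrowest spread within *Tet2*-/- of the 4 gains. In *Dmc1*, 19 CpGs were at 11.8% and 0% against 65.6%, 69.0% and 98.1%. The value of 0% rests on 69 calls, and a count of 0 allows a level of up to 4.35%. In the loss at *1700001L05Rik* the 31 CpGs were at 93.8% in library 23 but 10.5% in library 24, and at 0.685%, 0.617% and 0% in *Tet2*-/-, where the 0% of 103 calls allows up to 2.91%. The 6 CpGs of the *Krt8* promoter were at 96.6% and 86.2% against 92.1%, 89.1% and 94.9%, and the groups overlapped there, although the tile around it gained methylation.

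The 5 libraries held 63111735 to 110752967 calls, or 3.08 to 5.40 per CpG on the autosomes, and 3308781 to 6396696 calls lay on chromosome 15. A tile of the chromosome had a median of 128 to 244 calls per library, against 103 to 176 on the other autosomes. Tiles of the chromosome had a median of 36 CpGs and a median GC content of 41.2%, against 37 and 41.6% on the other autosomes. At the threshold, 185 kept tiles had 20 to 24 calls in their shallowest library and levels of 57.2% to 72.1% per library, and 109 tiles left out had 15 to 19 calls and levels of 63.6% to 74.7%. Promoters of blood and myeloid genes were low, with *Spi1* at 3.39% to 12.1%, *Mpo* at 7.46% to 16.2%, *Csf3r* at 5.21% to 23.95%, *Ptprc* at 18.7% to 33.7% and *Itgam* at 31.6% to 41.0%. Those of genes of other tissues were high, at 59.2% to 93.3% for *Alb*, *Ins2*, *Myh6* and *Sftpc*, but *Cdh1*, an epithelial gene, was at 9.74% to 28.1%.

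Coverage of the chromosome was expressed as calls per CpG over those of the other 18 autosomes in tiles of the same class of CpG number (6 classes, from under 20 to 100 or more CpGs). The ratio was 1.25 in library 23 and 1.06 in library 24 of *Tet2*+/+, and 1.43, 1.39 and 1.44 in libraries 5, 7 and 8 of *Tet2*-/-. The 3 *Tet2*-/- libraries were close together and above both *Tet2*+/+ libraries, which differed from each other by more than the 3 did. *Tet2*+/+ averaged 1.16 ± 0.133 (SD, n = 2) and *Tet2*-/- 1.42 ± 0.0237 (SD, n = 3). For scale, 1 extra copy in every cell of an otherwise diploid genome would give 1.5; numbers of chromosomes were not measured. Chromosome 15 ranked 1 of 19 autosomes in every library. In library 24 the lead was small, since the next autosome, chromosome 11, was also at 1.06. In the other 4 libraries the next was chromosome 11 at 1.04 to 1.07. The lowest value of any autosome was 0.805, on chromosome 2 in library 5. With classes of GC content in place of CpG number, the ratios were 1.25, 1.06, 1.43, 1.39 and 1.43. The excess was present at every CpG number, being 1.39 in tiles with under 20 CpGs and 1.48 in tiles with 100 or more in library 5, and 1.03 and 1.09 in library 24.

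**Figure D1:**
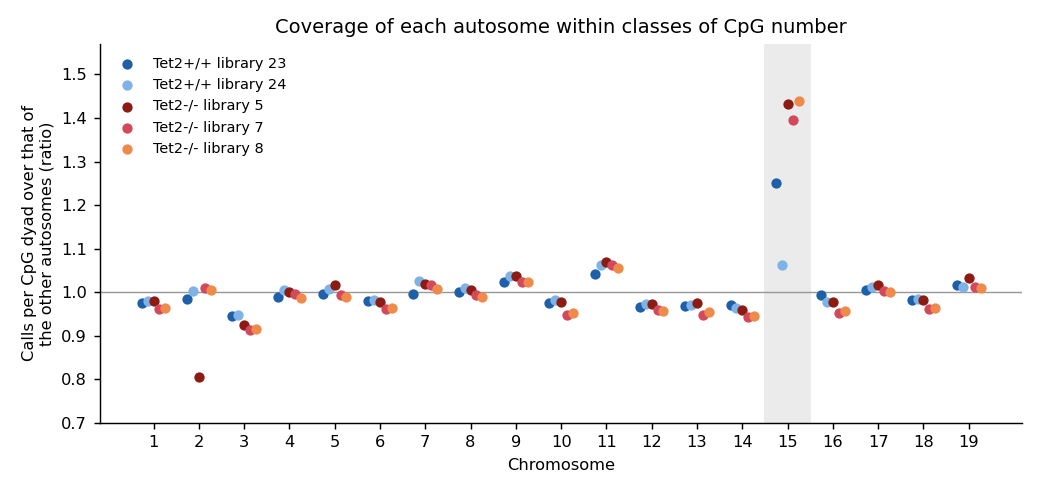
Calls per CpG dyad (a CpG with both strands summed) of each autosome over those of the other autosomes in the same classes of CpG number (y axis, ratio) by chromosome (x axis), 1 point per library. On chromosome 15 the 3 *Tet2*-/- points lie at 1.39 to 1.44, library 23 at 1.25 and library 24 at 1.06.

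Along the chromosome, the excess ran from end to end in libraries 5, 7 and 8 within classes of GC content, but not by every measure or in every library. Of 101 windows of 1 Mb with at least 100 tiles, all 101 were above 1 in libraries 5, 7 and 8 within classes of GC content. The ranges were 1.07 to 1.63, 1.07 to 1.55 and 1.09 to 1.63. In library 23, 98 windows were above 1 (0.989 to 1.40) and in library 24, 69 (0.828 to 1.18). Within classes of CpG number, 89, 57, 97, 92 and 95 of the 101 windows were above 1 in libraries 23, 24, 5, 7 and 8. Without regard to GC, coverage of windows followed their GC content (Spearman's rho = 0.97 over the 101 windows, which share libraries and base composition). Within classes of GC content the lowest windows were still GC-poor, so base composition is not fully removed from these ranges. They were chr15:20000001-21000000 in libraries 24, 5, 7 and 8 (0.828, 1.07, 1.07 and 1.09) and chr15:15000001-16000000, with 36.2% GC, in library 23 (0.989). The lowest window of libraries 5, 7, 8 and 24 was chr15:20000001-21000000, with 36.7% GC, at 0.960, 0.923, 0.968 and 0.745 within classes of CpG number. The lowest of library 23 was chr15:15000001-16000000 at 0.923. The other windows among the lowest 3 of a library began at 14000001, 17000001 and 49000001, with 36.9% GC or less. The highest were chr15:66000001-67000000 in libraries 23 and 5 (1.44 and 1.71), chr15:74000001-75000000 in library 24 (1.23) and chr15:78000001-79000000 in libraries 7 and 8 (1.68 and 1.71). The window at 66000001 has 42.6% GC and was also the highest of every library within classes of GC content. The other windows among the highest 3 of a library began at 74000001, 76000001 and 78000001 and had 49.4% to 51.4% GC.

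Each window was then set against the median of the same window in the other 4 libraries, in which GC content is shared. Libraries 5 and 8 were above 1 in all 101 windows, at 1.03 to 1.14 and 1.04 to 1.15, with coefficients of variation of 1.78% and 1.90%. Library 24 was below 1 in all 101 windows, at 0.698 to 0.818. On the other autosomes, 2275 windows had a 5th percentile of 0.961 and a 95th of 1.04 in library 24, and all 2275 lay above its chromosome 15 median of 0.770. For libraries 5 and 8, 10 and 3 of the 2275 windows lay above the chromosome 15 medians of 1.08 and 1.09. Libraries 23 and 7 varied more along the chromosome, at 0.807 to 1.05 and 0.903 to 1.15, with coefficients of variation of 7.13% and 6.55%. On the other autosomes the coefficients were 5.19%, 3.14%, 7.68%, 5.38% and 2.10% in libraries 23, 24, 5, 7 and 8. No window of library 5 or 8 fell to 1.

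**Figure D2:**
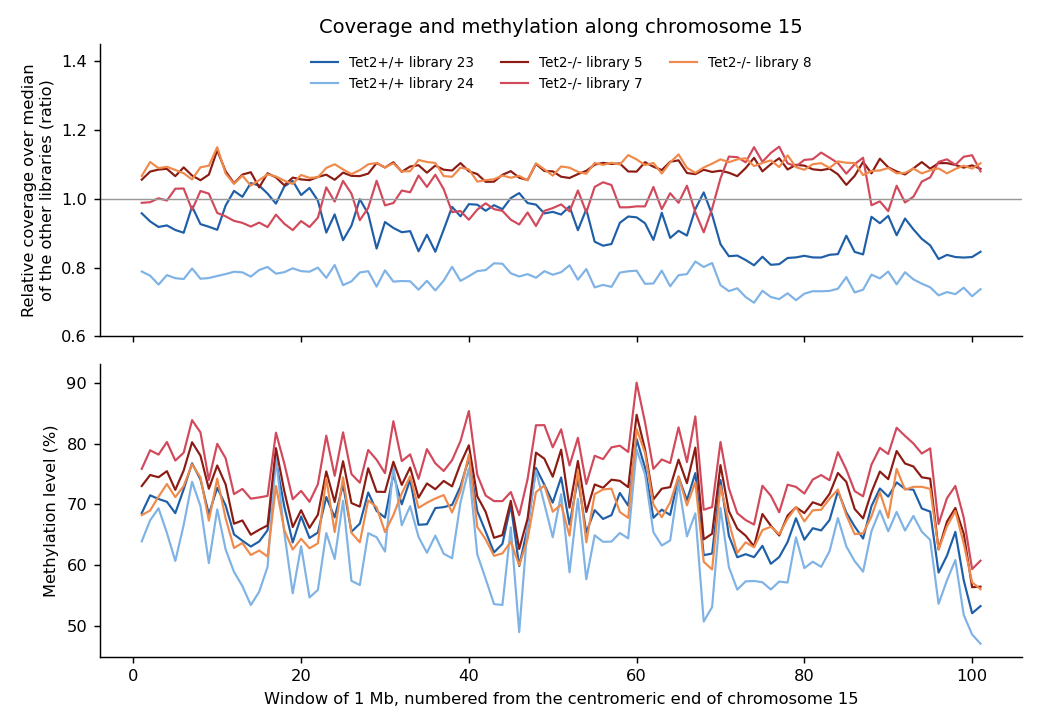
Coverage of each 1 Mb window of chromosome 15 over the median of the same window in the other 4 libraries (upper panel, ratio) and methylation level of the window (lower panel, %), 1 line per library. The windows are numbered from 1 to 101, with the first at the centromeric end. The lines of libraries 5 and 8 stay above 1 and that of library 24 below 0.818, while the levels of the 5 libraries move up and down together.

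The methylation level of the whole chromosome, with calls pooled over tiles, stood at 67.5% in library 23 and 62.5% in library 24 of *Tet2*+/+. In *Tet2*-/- it stood at 71.2%, 75.1% and 68.7% in libraries 5, 7 and 8. All 3 *Tet2*-/- libraries were above both *Tet2*+/+ libraries. *Tet2*+/+ averaged 65.0% ± 3.53 (SD, n = 2) and *Tet2*-/- 71.7% ± 3.23 (SD, n = 3), or 6.67 percentage points more. The difference did not pass the exact permutation test (two-sided p = 0.2), whose smallest p with 2 against 3 libraries is 0.1. By the median level of the chromosome's tiles the groups overlapped, with library 8 at 71.4% and library 23 at 71.7%. The other autosomes gained 6.58 points (64.8% to 71.4%), and chromosome 15 ranked 8 of 19 autosomes by gain. The share of tiles over 80% was 26.3% and 20.8% in *Tet2*+/+ against 37.3%, 54.0% and 27.4% in *Tet2*-/-, and that under 20% was 1.24% and 1.59% against 0.979%, 0.918% and 0.883%. Neither share passed its exact permutation test (two-sided p = 0.2 and 0.1, n = 2 and 3).

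Relative to the other autosomes in the same classes of CpG number, the level of chromosome 15 was higher by 0.887 and 0.860 points in libraries 23 and 24 and by 1.03, 1.22 and 0.923 points in libraries 5, 7 and 8. The difference between the groups was 0.185 points (exact permutation test, two-sided p = 0.2, n = 2 and 3), and it was 0.00996 points with tile medians, 0.0850 without classes, 0.109 in 10 kb tiles and 0.103 without library 7. It was small beside the gain of 6.67 points, which the chromosome shared with the other autosomes. With the value of 0.185 the chromosome ranked 5 of 19 autosomes. Hence a coverage excess of 1.39 to 1.44 in *Tet2*-/- stood beside a level at most 1.22 points above that of the other autosomes.

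The gain varied with CpG number. It was 6.23 points in tiles with under 20 CpGs and in those with 20 to 29, rose to 8.43 points in tiles with 60 to 99 (67.6% ± 3.13 to 76.0% ± 3.31, SD, n = 2 and 3), and was 4.35 points in the 775 tiles with 100 or more, whose levels were low (37.4% ± 3.03 to 41.8% ± 0.261). In this densest class the *Tet2*-/- libraries were at 41.7%, 42.1% and 41.6% and the *Tet2*+/+ libraries at 39.6% and 35.3%. On the other autosomes these 4 classes gained 6.39, 6.38, 8.18 and 3.46 points. With under 20, 20 to 29 and 30 to 39 CpGs the groups overlapped on chromosome 15. Library 8 was there at 64.5%, 68.7% and 72.3%, below library 23 at 66.2%, 70.2% and 72.6%. No class passed its exact permutation test (two-sided p = 0.3 in each of these and 0.1 in the densest, n = 2 and 3). The 724 tiles that hold the 5′ end of a protein-coding gene went from 33.4% and 29.8% to 35.6%, 35.8% and 35.6%, a gain of 4.06 points against 3.18 on the other autosomes. Tiles outside any gene, which made up 46.9% of the members, gained 7.67 points, from 65.9% ± 3.86 (SD, n = 2) to 73.6% ± 4.54 (SD, n = 3).

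For single tiles, edgeR's quasi-likelihood test was fitted to both kinds of calls over all 488658 tiles, with Benjamini-Hochberg adjustment at 0.05. On chromosome 15, 872 tiles (4.40%) were called higher in *Tet2*-/-, against 3.22% of all tiles tested, and 2 (0.0101%) were called lower, against 0.0217%. In 7514 tiles (37.9%) all *Tet2*-/- libraries were above both *Tet2*+/+ libraries, against 36.6% of all tiles, and in 219 (1.10%) all were below, against 1.28%. By share called higher the chromosome ranked 1 of 19 autosomes. The median difference of its tiles was 6.15 points, and of tiles on the other autosomes 6.22 points. Called tiles rose by 2.07 to 59.04 points with a median of 19.4, and their median level was 62.0% in *Tet2*+/+ and 83.3% in *Tet2*-/-.

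Depth moved with the count. With the calls of all libraries summed, 28.4% of chromosome 15 tiles had 1500 or more calls, against 15% on the other autosomes. Among tiles with 1000 to 1499 calls, 3.17% were called higher on chromosome 15 and 5.25% on the other autosomes, and in every class under 1500 the share on chromosome 15 was the lower. With 1500 or more calls, a class with 668 of the 872 called tiles, the shares were 11.8% and 10.7% and the median differences 6.83 and 6.56 points. Tiles of equal calls are not matched for CpG number. Within classes of CpG number, not matched for calls, 13.94% with 100 or more CpGs were called higher on chromosome 15. On the other autosomes it was 7.649%. With 40 to 59 CpGs the shares were 4.418% and 4.167%. Chromosome 15 had the higher share in every class but that of 20 to 29 CpGs (0.729% and 0.738%). When the calls of chromosome 15 were thinned in each library by its coverage ratio, an alternative chosen after seeing the data, 689 of 19563 tiles (3.52%) were called higher by edgeR, against 3.39% on the other autosomes. Without library 24, edgeR called 37 tiles higher (0.187%, against 0.0517% on the other autosomes), without library 23, 382 (1.93% against 1.09%), and without library 5, 424 (2.14% against 1.35%). Without library 23 or 24, here and below, *Tet2*+/+ is 1 library that is assumed to vary like the *Tet2*-/- libraries, so a call lost in these fits does not by itself mean a smaller difference. Limma called 309 higher and 3 lower, and by its calls the share called higher was 1.56% on chromosome 15 and 1.63% on the other autosomes, so that the larger share on chromosome 15 was not seen with this test. Limma after centring every library on its own median, which shifts all tiles by 0.52 on the log2 scale, left 10 higher (0.0504%, against 0.0415% on the other autosomes) and 2 lower.

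**Figure D3:**
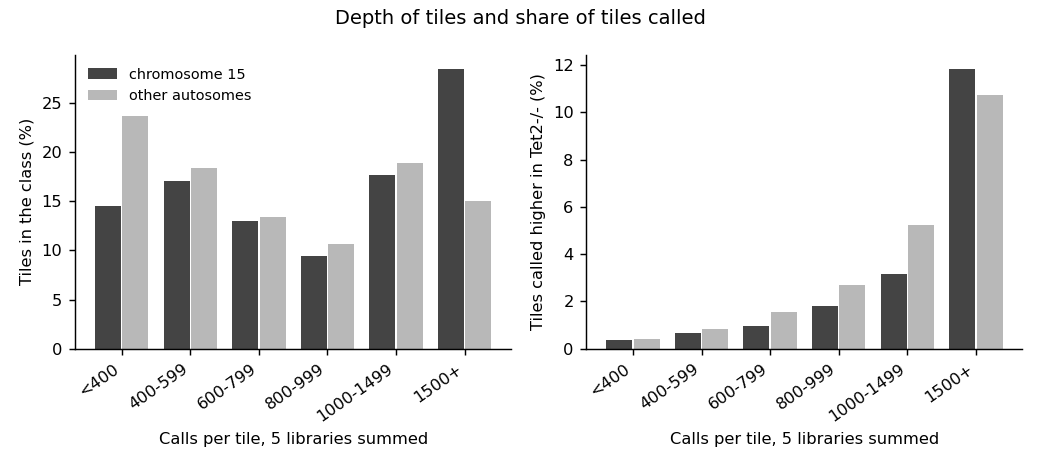
Left, share of tiles (y axis, %) by calls per tile summed over the 5 libraries (x axis), for chromosome 15 (dark) and the other autosomes (light). Right, share of the tiles in each class that edgeR called higher in *Tet2*-/- (y axis, %). Chromosome 15 has 28.4% of its tiles in the deepest class, where 11.8% were called.

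Across the 19823 tiles, coverage and methylation level were nearly unrelated within a library, with Spearman's rho of 0.03, -0.01, 0.09, 0.07 and 0.09 in libraries 23, 24, 5, 7 and 8. On the other autosomes the values were 0.05, 0.02, 0.12, 0.10 and 0.10. Tiles are not independent, share libraries and base composition, and are given no p. Mean coverage over the libraries and the gain in *Tet2*-/- had a rho of 0.11 on chromosome 15 and of 0.11 elsewhere. The change in coverage from *Tet2*+/+ to *Tet2*-/- and the gain had a rho of -0.01 on both. Split into 5 equal classes by mean coverage, the tiles gained 5.83, 4.68, 5.87, 7.05 and 7.81 points from the least to the most covered. The least covered class had a median of 26 CpGs and 37.8% GC and the highest 55 CpGs and 47.4% GC. In the least covered class and the next the groups overlapped, with library 8 at 68.6% and 67.1%, below library 23 at 69.8% and 68.6%. In the most covered class, levels were 64.8% and 60.3% against 69.4%, 73.9% and 67.7%, with 376 of 3965 tiles (9.48%) called higher by edgeR, against 5.82% of tiles of the other autosomes in the same range of coverage, which had a median of 1652 summed calls against 1977. In the least covered class 42 tiles (1.06%, against 1.14%) were called higher, with a median of 401 summed calls against 1977 in the most covered. In the 3 classes between, the share was 0.933%, 3.81% and 6.71% on chromosome 15 and 4.14%, 7.31% and 8.17% on the other autosomes, whose tiles had medians of 945, 1382 and 1621 summed calls against 595, 943 and 1399. On the other autosomes, tiles in the same ranges of coverage gained 5.26, 6.66, 7.78, 7.83 and 3.23 points, the last in 790 tiles.

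Every 1 Mb window had a higher mean level in *Tet2*-/-, and in 51 of 101 (50.5%) all *Tet2*-/- libraries were above both *Tet2*+/+ libraries, against 52.4% of windows of the other autosomes. The gain was 0.595 points at its lowest, 6.56 at the median and 10.8 at its highest, and was positive in 99.03% of the other windows, whose median was 6.46 points. The smallest gain was in chr15:19000001-20000000, with 77.2% and 77.6% in *Tet2*+/+ and 79.2%, 81.8% and 73.0% in *Tet2*-/-, where the groups overlapped. The largest was in chr15:101000001-102000000, with 57.6% and 51.9% against 65.2%, 67.8% and 63.6%, and 21 of its 199 tiles were called higher by edgeR, against 3.22% of all tiles. Other windows held more, such as that at 93000001 with 46 of 198. The window with *Myc*, chr15:61000001-62000000, was at 69.8% and 64.4% against 72.8%, 78.6% and 67.8%, a gain of 5.97 points with overlapping groups. Its coverage was 1.26 and 1.08 in *Tet2*+/+ and 1.42, 1.38 and 1.49 in *Tet2*-/- within classes of GC content, near that of the whole chromosome. Over the windows, mean coverage and gain had a rho of 0.31.

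Of the 872 tiles called higher, 863 had groups that did not overlap, and the 5 with the largest gain are described here with both tiles called lower. The largest gain was at chr15:85665001-85670000 (76 CpGs), which overlaps an exon of the long non-coding RNA gene *Gm49539* and an intron of *Lncppara*. The nearest protein-coding gene, *Ppara*, is 64983 bases away. Levels were 15.4% and 10.9% in *Tet2*+/+ and 79.8%, 51.0% and 85.8% in *Tet2*-/-, a gain of 59.04 points (edgeR adjusted p = 8.48e-17). That tile and the one at *Ccdc65* (chr15:98715001-98720000), a gene of the motile cilium, stayed past the threshold in all 12 alternative fits. Levels at *Ccdc65* were 31.5% and 19.3% against 73.6%, 77.4% and 74.7%, a gain of 49.9 points (edgeR adjusted p = 2.40e-10). *Fignl2*, which encodes a protein of the fidgetin family, overlaps a tile with 301 CpGs (chr15:101050001-101055000) that was at 28.3% and 16.0% against 86.6%, 53.6% and 84.3% (edgeR adjusted p = 7.14e-32). At *Adcy6* (chr15:98595001-98600000), which encodes an adenylyl cyclase, levels were 24.2% and 31.0% against 76.8%, 94.1% and 53.8% (edgeR adjusted p = 2.47e-19). The tile in *Dmc1* (chr15:79600001-79605000), a recombinase of meiosis, was at 38.6% and 37.4% against 75.1%, 78.7% and 91.9% (edgeR adjusted p = 2.16e-07). The tiles at *Fignl2*, *Adcy6* and *Dmc1* lost their calls with limma after subtraction of library medians (limma adjusted p = 0.0956 to 0.101). That the groups do not overlap in these 5 tiles follows from their choice, while the order of the *Tet2*-/- libraries changed from tile to tile. Library 7 was the lowest of the 3 at *Gm49539* and *Fignl2*, and library 8 the lowest at *Adcy6* and the highest at *Dmc1*. Relative coverage of these 5 tiles was 0.708 to 1.87 times the mean of the other autosomes.

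The tile called lower by the most was chr15:83365001-83370000 (104 CpGs), which holds the 5′ end of the long non-coding RNA gene *1700001L05Rik*. It was at 87.0% and 52.7% in *Tet2*+/+ and at 27.2%, 31.4% and 31.8% in *Tet2*-/-, a fall of 39.7 points (edgeR adjusted p = 1.33e-08). The 3 *Tet2*-/- libraries were close together, while the *Tet2*+/+ libraries were far apart, and without library 23 the tile did not pass (edgeR adjusted p = 0.110). The other, chr15:47595001-47600000 in *Csmd3*, which encodes a large membrane protein, was at 86.3% and 90.2% against 80%, 63.8% and 63.2% (edgeR adjusted p = 0.0464). It was lost in each of the 5 fits without 1 library (edgeR adjusted p = 0.0627 to 1.00).

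**Figure D4:**
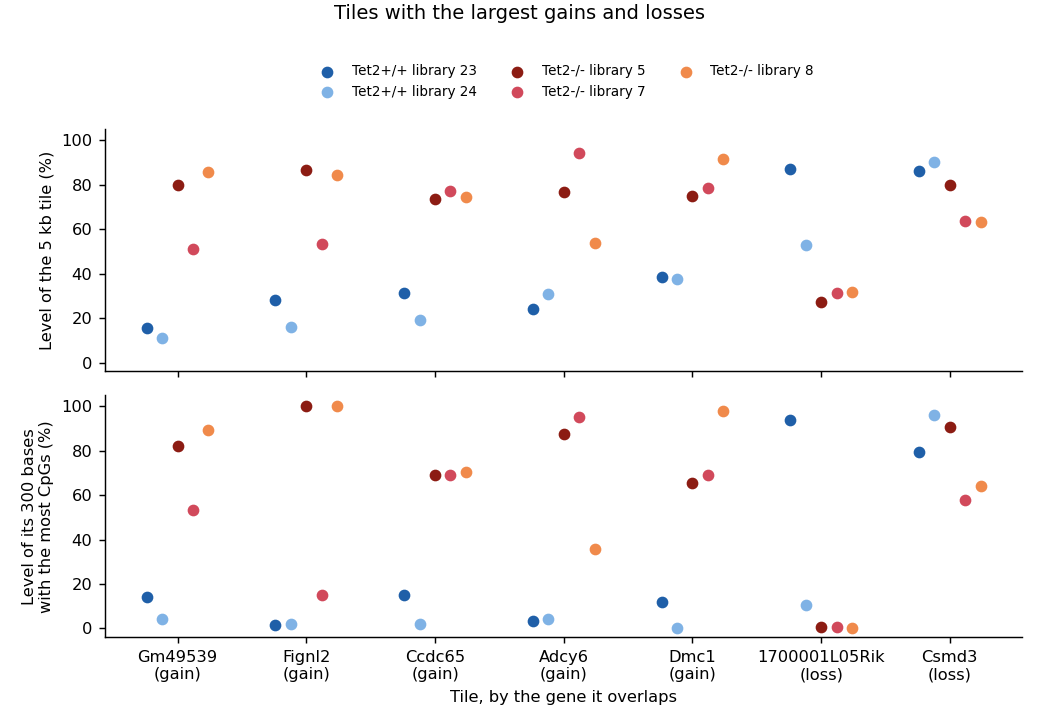
Methylation level (y axis, %) of the 5 tiles with the largest gains and of both tiles called lower (upper panel), and of the 300 bases with the most CpGs in each (lower panel), 1 point per library. At *Fignl2* library 7 lies at 53.6% in the tile and 14.9% in the 300 bases, and at *1700001L05Rik* library 24 lies at 52.7% and 10.5%.

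Genes of the chromosome were grouped in 8 lists, and each gene was read at the tile that holds its 5′ end. Of all tiles tested 3.22% were called higher, with a median difference of 6.14 points. Of the 724 tiles with the 5′ end of a protein-coding gene on chromosome 15, 58 (8.01%) were called higher, and 4.59% of such tiles on the other autosomes. The *Myc* region list had 15 tested genes, of which 1 was called higher. *Myc* itself (chr15:61985391-61990374, plus strand) has a CpG-rich start, and its tile was at 6.64% and 4.35% in *Tet2*+/+ and 7.42%, 9.32% and 7.22% in *Tet2*-/-, with no call (edgeR adjusted p = 0.151). *Trib1*, which encodes a pseudokinase, was called at a difference of 2.07 points, from 3.05% and 2.18% to 3.92%, 5.14% and 5.01% (edgeR adjusted p = 0.0465). That call was absent with the likelihood ratio test (edgeR adjusted p = 0.221), after thinning of chromosome 15 to the depth of the other autosomes, and without library 24, 7 or 8 (edgeR adjusted p = 1.00, 0.247 and 0.0874). *Pvt1*, a long non-coding RNA gene beside *Myc*, showed the largest difference downwards, at 53.9% and 50.9% against 47.0%, 43.6% and 44.7%, and did not pass (edgeR adjusted p = 0.501). *Gsdmc*, a gasdermin gene, showed the largest upwards, at 75.7% and 72.0% against 81.3%, 95.7% and 84.0% (edgeR adjusted p = 0.141). The median difference of the list was 0.527 points, and 7 of 348 tiles over its gene bodies (2.01%) were called higher, or 4 of 345 (1.16%) without *Trib1*. Coverage of these gene bodies was 1.38 and 1.18 in *Tet2*+/+ and 1.60, 1.55 and 1.63 in *Tet2*-/-. Coverage of gene bodies was above that of the whole chromosome in every list. It was 1.41 and 1.26 against 1.66, 1.69 and 1.68 over type II keratins, and 1.37 and 1.18 against 1.61, 1.60 and 1.64 over leukocyte genes. Coverage rose with GC content (Spearman's rho = 0.69 over chromosome 15 tiles), and gene bodies were not read within classes of GC content. The window of most keratins, chr15:101000001-102000000, was at 1.628, 1.636 and 1.641 in libraries 5, 7 and 8 within classes of CpG number. Within classes of GC content it was at 1.495, 1.451 and 1.499, and the whole chromosome at 1.427, 1.388 and 1.434. Whether listed genes exceed tiles of the same GC content was not tested.

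The *Hoxc* cluster, a row of homeobox transcription factors that set position in the embryo and are little used in most blood cells, had 3 of 9 distinct tiles called higher. The 9 include the tile of *Hotair*, a long non-coding RNA gene of the cluster. *Hoxc5* and *Hoxc10* share a tile by the annotation (chr15:102965001-102970000), which was at 21.7% and 19.1% in *Tet2*+/+ and 33.1%, 44.2% and 36.7% in *Tet2*-/- (edgeR adjusted p = 0.00390). The tile of *Hoxc8* was at 13.8% and 12.2% against 19.4%, 30.1% and 36.6% (edgeR adjusted p = 0.00729). The tile of *Hoxc6* was at 11.8% and 10.3% against 19.1%, 24.6% and 23.5% (edgeR adjusted p = 0.0337). In these 3 tiles all *Tet2*-/- libraries were above both *Tet2*+/+ libraries. The same held in 5 of the 9 tiles, that of *Hotair* among them, against 36.6% of all tiles. The smallest difference was at *Hoxc12*, at 30.02% and 30.8% against 37.6%, 29.02% and 34.6%. Over the gene bodies 6 of 22 tiles were called higher, against 5.99% of chromosome 15 tiles that overlap a protein-coding gene. Of the 6, 5 were among the 11 over the long *Hoxc5* gene model, which also overlaps *Hoxc6*, *Hoxc8*, *Hoxc9* and *Hoxc10*. The 5.99% is not matched for CpG number, and the start tiles of the cluster hold 72 to 206 CpGs. On chromosome 15, 445 of 3290 tiles with 60 to 99 CpGs and 108 of 775 with 100 or more were called higher. Both shares were above those of the other autosomes in the same classes, 9.594% and 7.649%. Whether the cluster differs from tiles of the same CpG number was not tested. The pooled level of the gene bodies was 21.0% and 19.6% against 28.4%, 33.1% and 31.1%. None of the 3 calls held without library 24 (edgeR adjusted p = 0.426 to 0.926), while the fitted log2 differences in the ratio of methylated to unmethylated calls were 1.14, 1.28 and 1.10 for *Hoxc5*, *Hoxc8* and *Hoxc6*, against 1.25, 1.39 and 1.21 with all libraries. That of *Hoxc8* was also lost without library 23 or 8 (edgeR adjusted p = 0.0550 and 0.0673), and that of *Hoxc6* without library 23, 5 or 8 (edgeR adjusted p = 0.0735 to 0.142), with the likelihood ratio test (0.0636) and after thinning of chromosome 15 (0.0680).

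Type II keratins, the filament proteins of epithelia that pair with type I keratins, are silent in blood and lie together near the far end of the chromosome. All 25 tested start tiles had a higher mean in *Tet2*-/-, and in 21 of them all *Tet2*-/- libraries were above both *Tet2*+/+ libraries, against 36.6% of all tiles. Of all tiles tested 86.7% had a higher mean in *Tet2*-/-. Differences ran from 8.05 points at *Krt71* to 21.9 points at *Krt8*, with a median of 10.7. All the tiles but that of *Krt8* lie in chr15:101000001-102000000, the window with the largest gain (10.8 points). Whether keratin starts differ from other tiles of that window was not tested. Only *Krt8*, the keratin of simple epithelia, was called, with 64.9% and 57.0% in *Tet2*+/+ and 77.7%, 90.1% and 80.6% in *Tet2*-/- (edgeR adjusted p = 0.000363). Neighbouring tiles share their libraries and their place on the chromosome, so the 25 are not independent. The call of *Krt8* was lost without library 24 (edgeR adjusted p = 0.346, at a fitted log2 difference of 1.451 against 1.688 with all libraries) and with limma, without and with subtraction of library medians (limma adjusted p = 0.0516 and 0.240).

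Cytokine and growth factor receptors, through which blood progenitors receive signals, had 2 of 12 tiles called higher. *Il2rb*, the beta chain of the receptors for interleukin-2 and interleukin-15, was at 66.4% and 56.5% against 79.0%, 88.0% and 81.4%, with no overlap (edgeR adjusted p = 0.00758). *Npr3*, a receptor that clears natriuretic peptides, was at 26.9% and 14.7% against 53.0%, 24.7% and 30.3% (edgeR adjusted p = 0.00694). There the groups overlapped, and without library 5 the call was absent (edgeR adjusted p = 0.376). *Csf2rb*, the shared beta chain of the receptors for GM-CSF, interleukin-3 and interleukin-5, which also stands in the leukocyte list, was at 32.9% and 26.7% against 26.0%, 31.8% and 31.0%, the smallest value of the list at -0.196 points. The calls of *Il2rb* and *Npr3* were lost without library 24 (edgeR adjusted p = 0.900 and 1.00) and with limma (limma adjusted p = 0.0674 and 0.0832). The fitted log2 differences without library 24 were 1.318 and 0.555, against 1.618 and 1.089 with all libraries. The call of *Npr3* was also lost with the likelihood ratio test (edgeR adjusted p = 0.0763). The median difference of the list was 9.18 points.

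No start tile was called in the remaining 4 lists, which held 17, 23, 26 and 20 distinct tiles. The *Ly6* family, small surface proteins of leukocytes and other cells, had a median difference of 9.27 points, and 8 of its 17 tiles had all *Tet2*-/- libraries above both *Tet2*+/+ libraries, against 36.6% of all tiles. *Ly6l* had the largest, at 64.3% and 47.4% against 75.4%, 82.5% and 73.3% (edgeR adjusted p = 0.104), and *Ly6c1* the lowest, at -1.85 points. Family members are similar in sequence, so reads may be placed at the wrong copy. Leukocyte genes had a median difference of 1.59 points, with *Gpr84*, a receptor for fatty acids, at the top (16.1 points, edgeR adjusted p = 0.201) and *Itgb7*, an integrin chain, at the bottom (-7.31 points, edgeR adjusted p = 0.504). Genes of chromatin and genome maintenance had a median of 2.49 points, from -5.57 at *Brd1* to 19.2 at *Dmc1* (edgeR adjusted p = 0.385 and 0.0534). The *Dmc1* tile among the largest gains above (chr15:79600001-79605000, 43.9 points) is another tile of that gene, and it was called. Genes of translation and protein turnover had a median of 1.04 points, from -2.27 at *Eif3l* to 13.3 at *Ywhaz* (edgeR adjusted p = 0.810 and 0.170). With each library's median subtracted, which lowers every tile by the same 0.52 on the log2 scale, the medians of the *Myc* region, leukocyte, chromatin and translation lists were -0.47, -0.40, -0.33 and -0.43, below the median of all tiles, and those of the keratin, *Ly6*, *Hoxc* and receptor lists 0.17, 0.17, 0.16 and 0.05. With limma after that subtraction no start tile of the 8 lists was called.

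**Figure D5:**
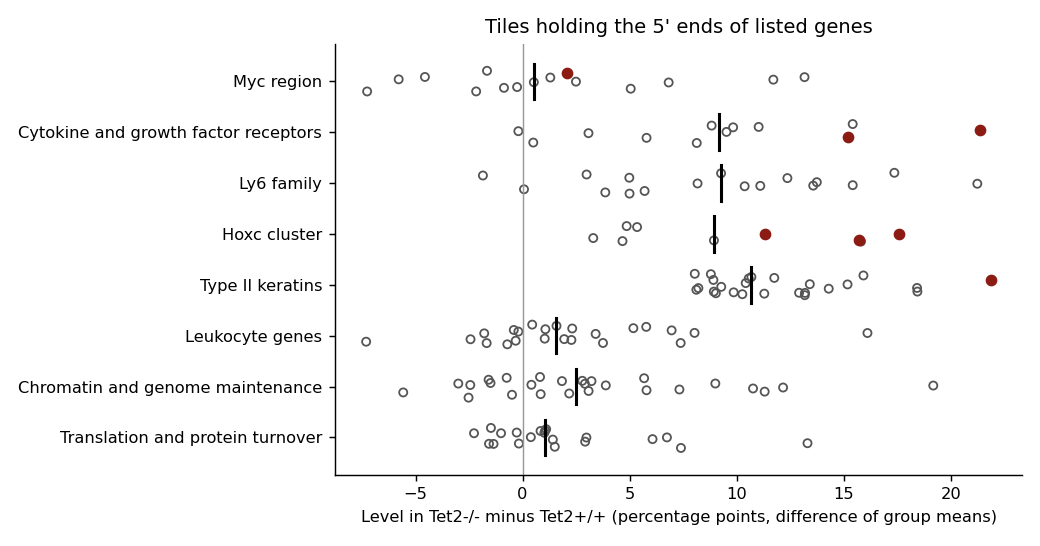
Difference of group means (x axis, percentage points, *Tet2*-/- minus *Tet2*+/+) of the tiles that hold the 5′ ends of the genes in each list (y axis). Filled points passed edgeR's test, open points did not, and bars mark medians; the 25 keratin tiles all lie at 8.05 points or more, while those of translation genes have a median of 1.04.

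A single tile of the 19823 on the chromosome exceeded 3 times the mean coverage of the other autosomes, against 57 of 441376 tiles on the other autosomes. It lies at chr15:75085001-75090000, near *Ly6c2*, outside any gene, and its relative coverage was 8.90 and 8.28 in *Tet2*+/+ and 7.40, 6.92 and 9.51 in *Tet2*-/-. High coverage was present in both groups, without the order of the libraries seen for the whole chromosome. Its level was 71.1% and 68.6% against 76.8%, 79.2% and 74.9% (edgeR adjusted p = 0.270). The next 4 tiles by coverage, among them tiles of *Tg*, *Nsmce2* and *Mucl2*, lay between 1.58 and 2.84, and none was called. It holds 1005 to 1347 calls per library.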

How the data were processed

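WGBS was read in 2 *Tet2*+/+ and 3 *Tet2*-/- libraries. The authors trimmed reads with Trim Galore (0.4.3), checked them with FastQC (0.11.7), aligned them to GRCm38 with Bismark (0.19.1, non-directional) and Bowtie2, removed duplicates and deposited whole-number counts of methylated and unmethylated reads at every cytosine of a CpG. Here both strands of a CpG were summed, and tiles of 5 kb were kept where every library had 20 or more calls. All CpG positions matched GRCm38. The level is methylated calls over all calls. Tiles were tested with edgeR (4.0.16) under R (4.3.3) with a coefficient per library and a trended dispersion, and whole-chromosome levels with an exact permutation test. Scripts were tested on simulated data, with real depths and an assumed spread between libraries. Among 100000 simulated tiles, edgeR recovered 48 of 200 tiles changed by 25 points, with 1 false call. It recovered 181 of 200 changed by 45 points, with 3 false calls. A tile without a call may therefore still differ. Coverage follows bisulfite conversion and amplification bias as well as DNA amount, intervals and limits cover counting error only, and the level counts 5-hydroxymethylcytosine as methylated. The chromosome, its tiles and the gene lists were chosen with earlier results of these data known. Genes are from GENCODE and promoters from RefSeq (1 *Krt8* promoter is shown). Named tiles were up to 5 in each direction with the largest difference among called tiles whose groups do not overlap, plus, for each list, called members and those with the largest differences. Alternatives were a minimum of 10 or 50 calls, tiles of 10 kb, CpGs called in all 5 libraries, tile medians, GC classes, no classes, the likelihood ratio test, limma (3.58.1) on log2 ratios with 2 added to each count, thinning, and leaving out each library. Genes of the lists that are not on the chromosome in the annotation used were not analysed here.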

Additional observations from a re-analysis of the deposited data

How the results depend on the processing

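The gain of the chromosome and its difference beyond the other autosomes kept their sign under every alternative run. Their exact test could pass under none of them, since its smallest p is 0.1. Leaving out 1 library gave gains of 4.17 to 9.17 points and differences beyond the other autosomes of 0.103 to 0.254 points. That difference, 0.185 points, was 0.00996 with tile medians, 0.109 in 10 kb tiles and 0.0850 without classes. The count of tiles called higher was within 1.5 times of 872 with other minimums, 10 kb tiles, the likelihood ratio test and both ways of thinning. With 10 kb tiles the total is smaller, and 671 of 10065 were called (6.67%, against 4.29% on the other autosomes). It was 309 with limma, 10 after subtraction of library medians, and 37 to 1017 when 1 library was left out, the lowest without library 24. The cause was not tested. In library 8 the coverage ratio was 1.41 with a minimum of 50 calls, and other settings moved no ratio by more than the spread within its group. The rho of coverage and gain was 0.31 in windows of 1 Mb and 0.0529 to 0.164 without 1 library. A related rho set each library's coverage and level, both relative to the other libraries, against each other. It was 0.114, -0.0852, -0.0226, -0.0701 and -0.000682 in libraries 23, 24, 5, 7 and 8, with a mean of -0.0130. No paired analysis was possible because the groups share no replicate number. With 3.08 to 5.40 calls per CpG, single CpGs were not compared. Of 180 values of the tiles named as gains, losses or list members past the threshold, with the tile shared by *Hoxc5* and *Hoxc10* taken for each gene, 135 stayed past it, 45 did not and 0 changed sign.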

Other observations

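Tiles over exons and over gene bodies give a further view of the chromosome. Of 5610 tiles that overlap an exon, 434 (7.74%) were called higher in *Tet2*-/- by edgeR, against 5.16% of such tiles on the other autosomes, and of 9292 tiles outside any gene 265 (2.85%), against 2.29%. Of chromosome 15 tiles that overlap a protein-coding gene 5.99% were called higher, and 4.39% on the other autosomes. Over the bodies of listed genes, 21 of 176 tiles of cytokine and growth factor receptors (11.9%), 17 of 172 of leukocyte genes (9.88%), 20 of 242 of chromatin genes (8.26%) and 5 of 143 of translation genes (3.50%) were called higher, and none of 33 in the *Ly6* family. In the receptor list 12 of the 21 lay over *Lifr*, the receptor for leukemia inhibitory factor, which spans 22 tiles, and without it 9 of 154 (5.84%) were called higher. In the chromatin list 6 of the 20 lay over *Mei1*, which spans 13 tiles, and without it 14 of 229 (6.11%) were called higher. Without their top genes, *Grap2* and *Eif3d*, the leukocyte and translation lists had 14 of 155 (9.03%) and 4 of 139 (2.88%). In the leukocyte list no start tile was called, and in 4 of 23 all *Tet2*-/- libraries were above both *Tet2*+/+ libraries, against 36.6% of all tiles. The difference between starts and bodies was not tested. The share of tiles called higher grew with the calls per tile, on chromosome 15 from 0.382% under 400 calls to 11.8% at 1500 or more.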
